A study of Caenorhabditis elegans with 24 samples.

Results

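Transcript levels of 10 genes for acyl-CoA synthetases were followed in adult Caenorhabditis elegans: acs-1, acs-2, acs-3, acs-4, acs-5, acs-7, acs-11, acs-17, acs-20 and acs-22. They were taken by symbol from the acs family with earlier results of these data known. Their counts beside all genes are therefore descriptive. For each, the probe set of highest mean intensity was used among those that name that gene alone. They are 10 of 17118 genes read this way. A gene was tested when its log2 intensity exceeded 4 on at least 3 of 24 arrays, which 12277 genes did. All 10 did, and each lay above 4 on all 24 arrays. A further 13 acs genes are on the array, of which 7 were tested.

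Acyl-CoA synthetases join fatty acids to coenzyme A, a step a fatty acid must pass before it can be burned, lengthened, desaturated, stored in fat or attached to a protein. Which enzyme does so, and at which membrane, is known to bear on the route the fatty acid takes, and different family members serve mitochondria, peroxisomes and the endoplasmic reticulum. In worms without food, acs-2 is a widely used marker of the switch to fat burning in mitochondria, and it is known as a target of the nuclear receptor NHR-49.

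The worms were wild-type N2 at 20 °C, collected at day 4 of adulthood after growth on plates for RNA interference (RNAi), in which eaten bacteria deliver double-stranded RNA that lowers a matching transcript. Fasted and fed Rheb RNAi worms gave 4 arrays each, fasted and fed TOR RNAi worms 3 each, and fasted and fed control RNAi worms 5 each. Rheb (rheb-1) is a small GTPase that activates TOR, and TOR (let-363) is a kinase that couples nutrients to growth. Fasting lasted 48 h and fed worms ate freely. RNA of whole worms was read on Affymetrix C. elegans Genome Arrays. Fewer cells of a type and less RNA per cell cannot be told apart in such samples. The labels call the samples biological replicates, and the p-values measure the spread between them.

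The knockdown of let-363 was seen in its own transcript, at -1.44 ± 0.14 (log2 change ± standard error, SE) in fasted and -1.45 ± 0.14 in fed TOR RNAi worms against control (limma's adjusted p = 1.2e-07 and 9.7e-08). For rheb-1, the brighter of its probe sets, at -0.50 ± 0.24 in fasted and -0.30 ± 0.24 in fed Rheb RNAi worms, was not called. Its dimmer probe set was at -1.85 and -2.55 in a fit of all probe sets. Median array intensities ran from 46.9 to 58, and arrays correlated with each other at 0.942 to 0.994 over all probe sets. The ratio of the 3' to the middle Gapdh probe set, a sign of RNA length, was 0.764 to 1.02 on Rheb RNAi arrays, 0.734 to 0.964 on TOR RNAi arrays and 0.636 to 0.859 on control arrays. Other ratios put other arrays highest. For actin, 3' to middle, it was TOR fasted 2 (3.88), and for Gapdh, 3' to 5', it was Rheb fed 4 (1.35). Markers of germline, intestine, muscle, epidermis, neurons and embryos were all present, with ceh-51, an embryonic factor gene, below log2 4 on all arrays of 4 groups.

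Fasting changed 5 of the 10 genes in control worms, 3 in Rheb RNAi worms and 2 in TOR RNAi worms, and acs-1 and acs-2 were among them on every kind of plate. A change was called at limma's adjusted p under 0.05, over all genes tested. In Rheb RNAi worms acs-2 rose and acs-1 and acs-22 fell, where 11.9% of all tested genes were called, and in TOR RNAi worms acs-2 rose and acs-1 fell, where 6.24% were called. In control worms acs-2, acs-3, acs-11 and acs-17 rose and acs-1 fell, against 18.9% of all tested genes called. The median change of the 10 genes was 0.07 in Rheb RNAi, 0.19 in TOR RNAi and 0.27 in control worms, beside 0.09, 0.08 and 0.04 over all tested genes. The labels state no pairing of arrays, but same-numbered arrays deviated together from their group means, and the replicate number was therefore used as a block. It gave counts of 5 in Rheb RNAi, 5 in TOR RNAi and 7 in control worms. Of all tested genes 31.1%, 14.4% and 38.3% were called under the block. The genes added by the block were acs-4 and acs-20 under Rheb RNAi, acs-11, acs-20 and acs-22 under TOR RNAi, and acs-20 and acs-22 in control worms.

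Fasting responses were then set against each other as interaction terms. Under Rheb RNAi the responses of acs-2, acs-3 and acs-17 were lower than in control worms, 3 of 10 beside 4.89% of all tested genes called, and 5 of 10 under the block, which added acs-4 and acs-22, beside 17.5%. Under TOR RNAi those of acs-2 and acs-3 were lower than in control worms, 2 of 10 beside 2.44%. No gene differed between TOR and Rheb RNAi, 0 of 10 beside 0.318%, and 0 had an unadjusted p under 0.05 in limma. The median interaction of the 10 genes was -0.48 for Rheb and -0.29 for TOR RNAi against control, beside 0.02 and 0.00 over all tested genes. Both sets of interactions use the same 10 control arrays. The 2 arrays of highest Gapdh 3' to middle ratio, called the Gapdh 3' ratio below, are 1 fed and 1 fasted Rheb RNAi array, both of number 3. They are not the highest by the other ratios. Without them, an alternative added after the data were seen, 1 gene (acs-2) was called in each interaction with control, beside 3.12% of all tested genes for Rheb and 2.39% for TOR RNAi. These 2 arrays do not enter the TOR interaction, where acs-3 stayed at -1.19 and only its adjusted p in limma moved, to 0.060.

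Each knockdown was also set against control RNAi within a feeding state. In fed worms the counts without a block or centring were near the share of all tested genes called. In fed worms, Rheb RNAi raised acs-3, acs-17 and acs-20, 3 of 10 beside 33.1% of all tested genes called, and 6 of 10 under the block, which added acs-2, acs-4 and acs-7, beside 52.8%. With each array centred on its median, which put the median change of all genes at -0.15 in place of 0.02, the count was 6 of 10, now 3 higher and 3 lower (acs-4, acs-5 and acs-11), beside 36.2%. TOR RNAi raised acs-2, acs-3 and acs-17 and lowered acs-4 in fed worms, 4 of 10 beside 33.3%. In fasted worms, Rheb RNAi raised acs-20 and lowered acs-2, acs-5, acs-11 and acs-22, 5 of 10 beside 19.6%. No gene was called between fasted TOR RNAi and fasted control worms, 0 of 10 beside 25.2%, and 1 gene, acs-5, had an unadjusted p under 0.05 in limma. The numbers do not pair TOR RNAi with control arrays. All 4 contrasts share their control arrays with the interactions above.

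**Figure D1:**
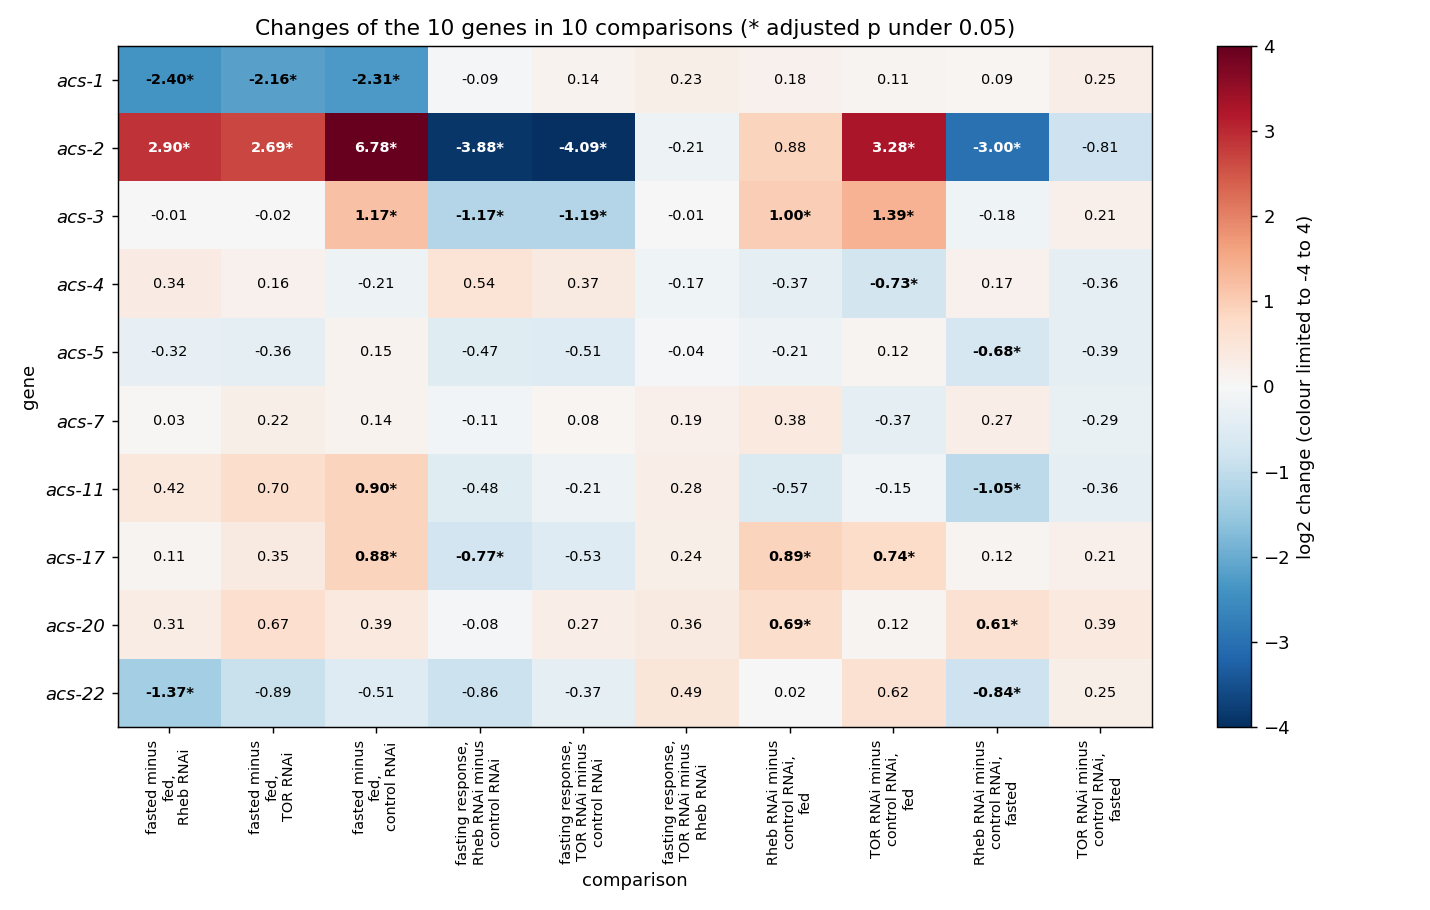
Log2 changes of the 10 acyl-CoA synthetase genes (rows) in the 10 comparisons (columns), coloured from blue (lower) to red (higher), with stars for limma's adjusted p under 0.05. The row of acs-2 holds the largest values, 2.90 on fasting in Rheb RNAi, 2.69 in TOR RNAi and 6.78 in control worms, and acs-1 is lower on fasting in all 3.

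acs-2 encodes an enzyme that activates fatty acids for beta-oxidation in mitochondria. Its log2 intensity was 9.77, 9.73, 9.16 and 10.96 in fasted Rheb RNAi worms and 7.51, 7.05, 6.38 and 7.08 in fed Rheb RNAi worms. In TOR RNAi worms it was 11.83, 11.87 and 12.56 fasted and 8.17, 9.19 and 10.84 fed. Control worms had 12.48, 12.09, 13.28, 13.35 and 13.31 fasted and 5.52, 6.17, 6.02, 5.43 and 7.48 fed. On each kind of plate every fasted array lay above every fed one. The fed TOR RNAi arrays were the most scattered, with 9.40 ± 1.35 (SD, n = 3), and their highest value exceeded 3 of the 4 fasted Rheb RNAi values.

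On fasting acs-2 rose by 2.90 ± 0.49 in Rheb RNAi worms, 7.45-fold, with limma's adjusted p = 1.7e-04. It rose by 2.69 ± 0.57 in TOR RNAi worms, 6.44-fold, with limma's adjusted p = 0.0029. In control worms the rise was 6.78 ± 0.44, or 110-fold, with limma's adjusted p = 1.7e-10. The fasting response was thus lower than in control worms by -3.88 ± 0.66 under Rheb RNAi and by -4.09 ± 0.72 under TOR RNAi (limma's adjusted p = 6.0e-04 and 0.0015). Between TOR and Rheb RNAi the responses differed by -0.21, which was not called. The TOR RNAi values moved by over 1.5 times with 2 of the scattered fed arrays. Without TOR fed 1 the fasting rise was 2.07 (4.20-fold, adjusted p = 0.037) and the interaction -4.71, and without TOR fed 3 they were 3.41 (10.6-fold) and -3.37. All of these were still called.

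The endpoints of these similar log2 responses lay apart. Fed TOR RNAi worms had 3.28 ± 0.51 more acs-2 than fed control worms, 9.69-fold, with limma's adjusted p = 5.1e-05. That difference was 3.89 (14.8-fold) without TOR fed 1 and 2.56 (5.88-fold) without TOR fed 3, and was called in both fits. Fed Rheb RNAi worms were at 0.88 ± 0.47 against fed control worms, which was not called (limma's adjusted p = 0.15). That difference was called at 1.1 under the block (adjusted p = 0.022) and at 1.22 without control fed replicate 5 (adjusted p = 0.039), whose 7.48 is the highest fed control value. In fasted worms Rheb RNAi lowered acs-2 by -3.0 ± 0.47 (limma's adjusted p = 5.2e-05), while TOR RNAi was at -0.81 ± 0.51 (limma's adjusted p = 0.25). By mean, the groups ran from fasted control (12.90) through fasted TOR RNAi (12.09), fasted Rheb RNAi (9.91), fed TOR RNAi (9.40) and fed Rheb RNAi (7.01) to fed control worms (6.13). Of these neighbours, fasted TOR and fasted Rheb RNAi did not overlap and fed TOR and fed Rheb RNAi did not overlap, and the other 3 neighbouring pairs did.

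A second acs-2 probe set, of lower mean, gave smaller changes of the same sign. It was at 2.17 on fasting in Rheb RNAi, 1.70 in TOR RNAi and 4.85 in control worms, and at -2.68 and -3.15 for the interactions of Rheb and TOR RNAi with control. It differed from the first in 1 call: fed Rheb RNAi worms were higher than fed control worms by 1.07 (limma's adjusted p = 0.023 in a fit of all probe sets). The size of the acs-2 response thus depends on the probe set by more than 1.5 times, and both probe sets were called for both interactions with control.

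**Figure D2:**
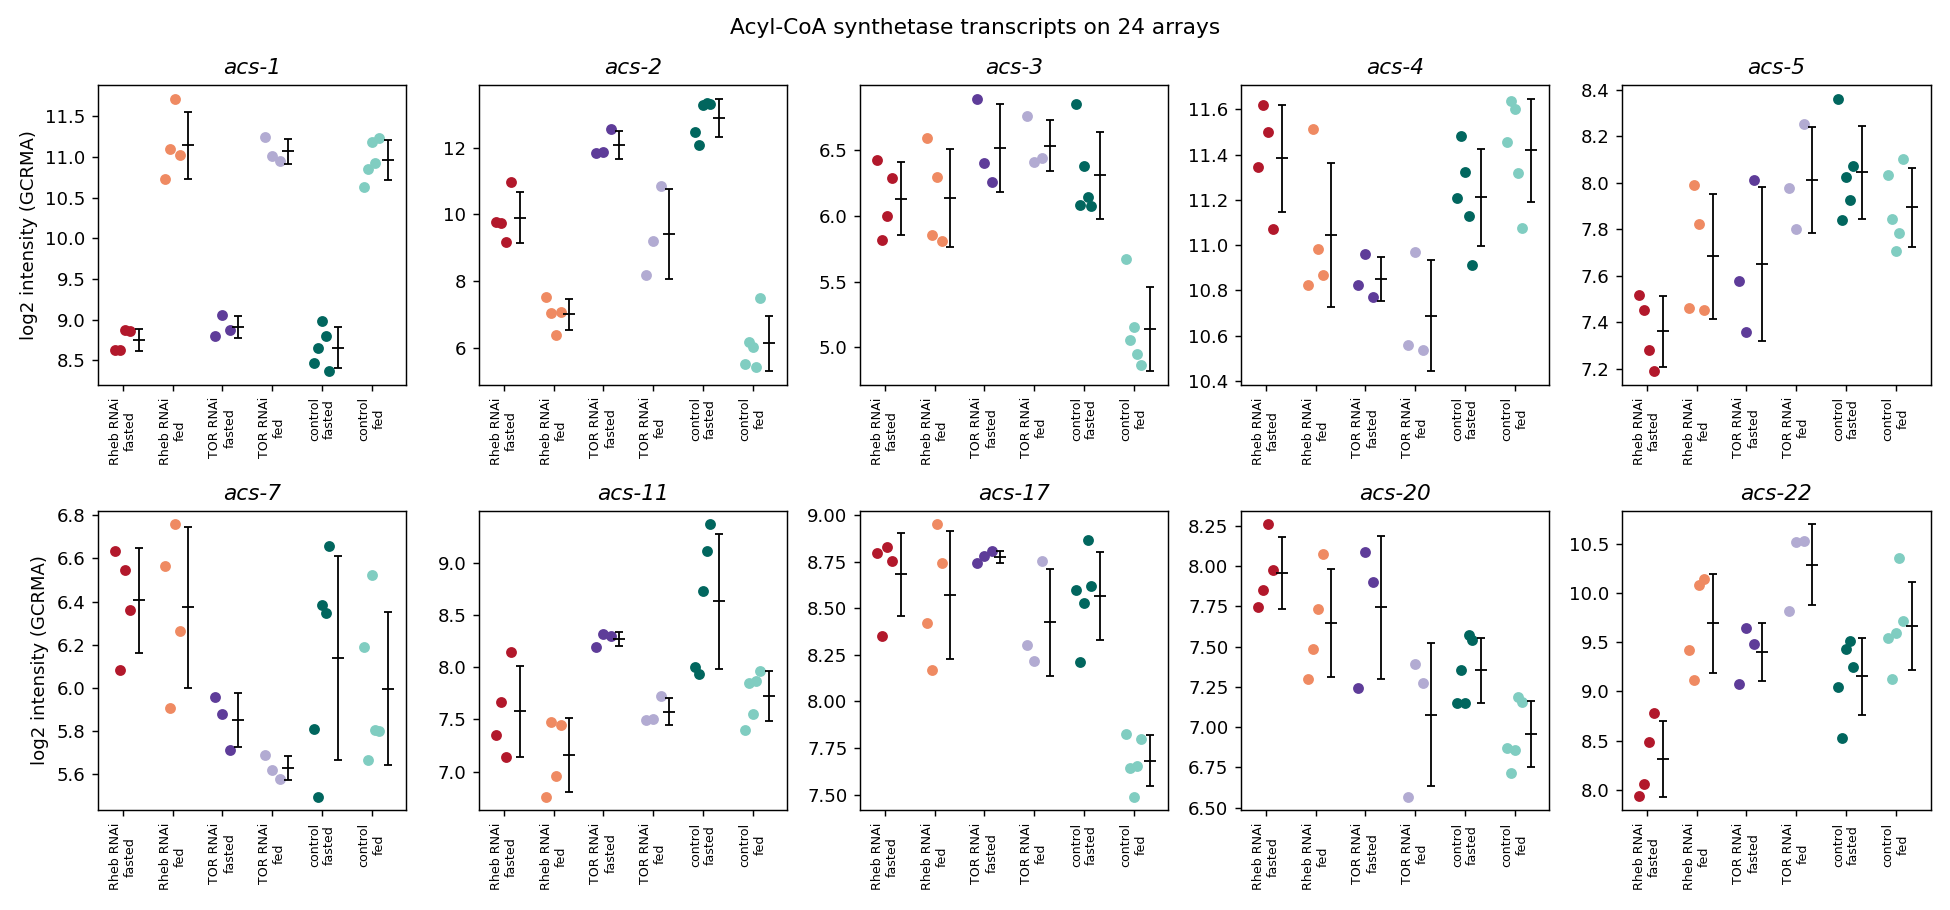
Log2 intensity of each gene on every array (points) for fasted and fed Rheb RNAi (n = 4 each), TOR RNAi (n = 3 each) and control worms (n = 5 each), with bars for the mean and SD beside them. Each panel has its own scale; acs-2 spans 5.43 to 13.35 over the arrays, and acs-4 only 10.54 to 11.64.

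acs-1, whose enzyme is known to activate branched-chain fatty acids that worms need for growth and development, fell on fasting by nearly the same amount on each kind of plate. Its log2 intensity was 8.63, 8.63, 8.87 and 8.86 in fasted and 10.73, 11.10, 11.72 and 11.03 in fed Rheb RNAi worms. TOR RNAi worms had 8.80, 9.05 and 8.87 fasted and 11.25, 11.01 and 10.95 fed. Control worms had 8.47, 8.65, 8.99, 8.80 and 8.37 fasted and 10.64, 10.85, 11.18, 10.92 and 11.23 fed. All 12 fasted arrays thus lay below all 12 fed ones, and within the fasted and within the fed arrays the neighbouring groups overlapped.

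The fall of acs-1 was -2.40 ± 0.18 in Rheb RNAi, -2.16 ± 0.21 in TOR RNAi and -2.31 ± 0.16 in control worms, with limma's adjusted p = 1.0e-09, 8.5e-08 and 5.4e-10. In control worms that is 4.95-fold lower. The interactions were -0.09 ± 0.24 for Rheb and 0.14 ± 0.26 for TOR RNAi against control (limma's adjusted p = 0.90 and 0.93), which does not show that the responses were equal. A second acs-1 probe set was at -2.45, -2.35 and -2.33 on the Rheb, TOR and control plates. Intestine markers, 12 of 12 measured and none at 0, were lower in the same worms. Their summed intensity was 8955 to 10827 in fasted and 12328 to 16599 in fed Rheb RNAi worms, 9110 to 10226 in fasted and 14710 to 18192 in fed TOR RNAi worms, and 10447 to 16652 in fasted and 13664 to 18671 in fed control worms. Their part in the fall of acs-1 was not tested.

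acs-3 and acs-17 had 1 shape in common: fed control worms were low and every other group was higher. acs-3 is known to act with the nuclear receptor NHR-25 in limiting the uptake and storage of fat. Its log2 intensity was 6.42, 5.82, 6.0 and 6.29 in fasted and 6.59, 5.86, 6.29 and 5.81 in fed Rheb RNAi worms, and 6.89, 6.40 and 6.25 in fasted and 6.76, 6.41 and 6.44 in fed TOR RNAi worms. In control worms it was 6.85, 6.08, 6.38, 6.14 and 6.08 fasted and 5.67, 5.05, 5.15, 4.95 and 4.87 fed. No fed control array reached any array of another group, and the other 5 groups overlapped their neighbours in the order of means.

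On fasting acs-3 was at -0.01 in Rheb RNAi and -0.02 in TOR RNAi worms, and it rose by 1.17 ± 0.19 in control worms, 2.25-fold, with limma's adjusted p = 1.1e-04. In fed worms it was higher by 1.0 ± 0.20 under Rheb RNAi (limma's adjusted p = 7.3e-04) and by 1.39 ± 0.22 under TOR RNAi (limma's adjusted p = 7.1e-05) than in control worms. The interaction with control was -1.17 ± 0.29 for Rheb RNAi (limma's adjusted p = 0.017), and at -1.08 it was not called without the 2 arrays of highest Gapdh 3' ratio (adjusted p = 0.084). For TOR RNAi the interaction was -1.19 ± 0.31 (limma's adjusted p = 0.045). Over the fits that left out 1 array the value ran from -1.37 to -1.05, and 15 of 24 such fits lost the call. These were the ones without Rheb fasted 3 or 4, Rheb fed 3, TOR fasted 2 or 3, TOR fed 1, 2 or 3, control fasted 1, 3 or 4, or control fed 2, 3, 4 or 5. Rheb arrays do not enter this interaction. Without 1 of those 3 it stayed at -1.19, and only limma's adjusted p moved, to 0.052 to 0.054. Under the block it was called with an adjusted p = 2.0e-04.

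acs-17, a further acyl-CoA synthetase gene, had log2 intensities of 8.80, 8.35, 8.83 and 8.75 in fasted and 8.42, 8.17, 8.95 and 8.74 in fed Rheb RNAi worms. TOR RNAi worms had 8.74, 8.78 and 8.81 fasted and 8.30, 8.22 and 8.75 fed. Control worms had 8.60, 8.21, 8.53, 8.86 and 8.62 fasted and 7.82, 7.64, 7.49, 7.66 and 7.80 fed. As for acs-3, every fed control array lay below every array of the other groups. On fasting acs-17 was at 0.11 in Rheb RNAi and 0.35 in TOR RNAi worms, and it rose by 0.88 ± 0.15 in control worms (limma's adjusted p = 1.6e-04). In fed worms Rheb RNAi raised it by 0.89 ± 0.16 (limma's adjusted p = 2.0e-04) and TOR RNAi by 0.74 ± 0.17 (limma's adjusted p = 0.0024).

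The interaction of acs-17 between Rheb and control RNAi, -0.77 ± 0.23, was at the threshold itself, with limma's adjusted p = 0.04999. Of the 24 fits that left out 1 array, 4 kept the call, those without Rheb fed 2, TOR fed 3, control fasted 2 or control fed 1, and 20 lost it, with values of -0.90 to -0.64 over all 24. TOR arrays do not enter this interaction. Where leaving out a TOR array lost the call, it stayed at -0.77, with limma's adjusted p at 0.052 to 0.060. Without the 2 arrays of highest Gapdh 3' ratio it was -0.69 (adjusted p = 0.14), and under the block it was called with an adjusted p = 0.0074. A second acs-17 probe set gave 0.49 on fasting in Rheb RNAi, 0.62 in TOR RNAi and 0.93 in control worms, and an interaction of -0.44 (limma's adjusted p = 0.35). It too was called in fed worms, at 0.73 under Rheb RNAi and 0.50 under TOR RNAi.

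Some markers of other tissues moved with acs-3 and acs-17 in part of the comparisons. Zygotic embryo markers, 10 of 10 measured with ceh-51 as the one below log2 4, had their lowest sums in fed control worms. Their summed intensity was 953 to 1430 in fasted and 619 to 875 in fed Rheb RNAi, 847 to 996 in fasted and 616 to 783 in fed TOR RNAi, and 566 to 1080 in fasted and 402 to 584 in fed control worms. Neuron markers, 8 of 8 measured and none below log2 4 throughout a group, summed to 8038 to 9236 in fed Rheb RNAi, 8624 to 9570 in fed TOR RNAi and 5631 to 6729 in fed control worms. In fasted control worms, where acs-3 and acs-17 rose, the neuron sum was 5997 to 8140 and overlapped the fed one. Muscle markers, 8 of 8 measured and none below log2 4 throughout a group, summed to 15319 to 23195 in fed Rheb RNAi, 7267 to 13916 in fed TOR RNAi and 6481 to 11736 in fed control worms, the last 2 overlapping. In fasted control worms the muscle sum was 5811 to 10499.5, with a median of 6623 against 8798 in fed control worms, and overlapped the fed one. By gene, 3 of 10 embryo, 5 of 8 neuron and 7 of 8 muscle markers were called higher in fed Rheb RNAi than in fed control worms. In fed TOR RNAi worms 3, 5 and 1 were. On fasting in control worms 2, 1 and 1 were called higher, and 1 muscle marker lower. The part of these markers in the levels of acs-3 and acs-17 was not tested.

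acs-20 and acs-22 encode relatives of the mammalian fatty acid transport proteins and are known for the worm's surface barrier. Both were read by a probe set of a type (_s_at) that can match more than 1 transcript, for acs-22 the only one, so that their values may hold signal of related genes. acs-22 had log2 intensities of 7.94, 8.06, 8.48 and 8.78 in fasted and 9.42, 9.12, 10.08 and 10.14 in fed Rheb RNAi worms. TOR RNAi worms had 9.08, 9.64 and 9.48 fasted and 9.82, 10.52 and 10.53 fed. Control worms had 9.05, 8.52, 9.43, 9.51 and 9.25 fasted and 9.54, 9.13, 9.59, 10.35 and 9.72 fed. Fasted and fed arrays did not overlap under Rheb RNAi and TOR RNAi and overlapped in control worms.

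acs-22 fell on fasting by -1.37 ± 0.28 in Rheb RNAi worms, 2.59-fold, with limma's adjusted p = 0.0012. It was at -0.89 ± 0.32 in TOR RNAi and -0.51 ± 0.25 in control worms, neither called, and the block called both (adjusted p = 2.3e-04 and 0.0013). The interaction of Rheb RNAi with control was -0.86 ± 0.37 (limma's adjusted p = 0.23), called under the block (adjusted p = 0.0016). Fasted Rheb RNAi worms had less acs-22 than fasted control worms, by -0.84 ± 0.26 (limma's adjusted p = 0.027). That call was lost without control fasted 3 (-0.77) or 4 (-0.75) or Rheb fasted 1 (-0.71) or 2 (-0.75). In fed worms TOR RNAi was at 0.62 ± 0.29 against control and was not called (limma's adjusted p = 0.095). It was called without control fed 4 (0.79) or TOR fed 1 (0.86), and at 0.81 under a block over all arrays (adjusted p = 0.0017), whose numbers do not pair TOR with control arrays. Epidermis markers, 7 of 8 measured, had summed intensities of 626 to 714 in fasted and 853 to 1289 in fed Rheb RNAi worms. In control worms, too, their sum was lower on fasting (927 to 1299 against 1483 to 1997). Under TOR RNAi it was not (538 to 695 fasted, 511 to 670 fed). By gene, 1 of the 7 was called lower on fasting under Rheb RNAi, 0 under TOR RNAi and 3 in control worms. Muscle markers summed to 9279 to 12186 in fasted and 15319 to 23195 in fed Rheb RNAi worms, and the intestine markers given above were lower there too. Their part in the fall of acs-22 was not tested.

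acs-20 lay higher under Rheb RNAi in both feeding states. Its log2 intensity was 7.75, 7.85, 8.26 and 7.97 in fasted and 7.30, 7.48, 7.73 and 8.07 in fed Rheb RNAi worms. Control worms had 7.15, 7.35, 7.15, 7.57 and 7.54 fasted and 6.87, 6.72, 6.86, 7.19 and 7.16 fed. Every Rheb RNAi array thus exceeded every control array of the same feeding state. TOR RNAi worms had 7.24, 8.09 and 7.90 fasted and 6.57, 7.39 and 7.27 fed, and spanned both. The difference between Rheb and control RNAi was 0.69 ± 0.20 in fed and 0.61 ± 0.20 in fasted worms (limma's adjusted p = 0.0094 and 0.032).

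The fasted call of acs-20 was lost without control fasted 1 (0.56), 2 (0.61) or 3 (0.55) or Rheb fasted 3 (0.50) or 4 (0.60), and without the 2 arrays of highest Gapdh 3' ratio (0.50, adjusted p = 0.13). By its second probe set the difference was 0.64 for fed worms (limma's adjusted p = 0.083) and 0.40 for fasted worms (adjusted p = 0.35), neither called. On fasting acs-20 was at 0.31 in Rheb RNAi, 0.67 in TOR RNAi and 0.39 in control worms and was not called, and the block called all 3 (adjusted p = 0.0498, 0.0021 and 0.0061). Without TOR fasted 1 it was called on fasting in TOR RNAi worms (0.92) and between fasted TOR RNAi and fasted control worms (0.64, against 0.39 with all arrays). Epidermis markers, 7 of 8 measured and none below log2 4 throughout a group, had a summed intensity of 853 to 1289 in fed Rheb RNAi and 1483 to 1997 in fed control worms, and of 626 to 714 in fasted Rheb RNAi and 927 to 1299 in fasted control worms. By gene, 2 of the 7 were called lower under Rheb RNAi than in control worms when fed, and 1 when fasted. The part of these markers in the level of acs-20 was not tested.

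acs-4, known from work on the germline for its part in attaching a fatty acid to proteins, spanned the smallest range of the 10 genes over the arrays. Its log2 intensity was 11.34, 11.62, 11.50 and 11.07 in fasted and 10.82, 11.51, 10.98 and 10.87 in fed Rheb RNAi worms. TOR RNAi worms had 10.83, 10.96 and 10.77 fasted and 10.56, 10.97 and 10.54 fed. Control worms had 11.21, 11.48, 11.32, 11.13 and 10.91 fasted and 11.45, 11.64, 11.60, 11.32 and 11.08 fed. All TOR RNAi arrays, fasted and fed, lay below all fed control arrays, while neighbouring groups in the order of means overlapped throughout.

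TOR RNAi lowered acs-4 in fed worms by -0.73 ± 0.18 (limma's adjusted p = 0.0030), and its second probe set was at -0.80 (adjusted p = 0.0072). Under Rheb RNAi it was at -0.37 ± 0.16 when fed (limma's adjusted p = 0.081), called at -0.45 under the block (adjusted p = 5.4e-04), at -0.46 without control fed 5 and at -0.53 without Rheb fed 2. Without Rheb fed 2 it was also called on fasting in Rheb RNAi worms (0.49, against 0.34 with all arrays). Germline and oocyte markers, 12 of 12 measured and none below log2 4 throughout a group, summed lower in fed knockdown worms than in fed control worms. By gene, 8 of the 12 were called lower under Rheb RNAi and 9 under TOR RNAi. Their summed intensity was 35677 to 50446 in fed Rheb RNAi, 28008.5 to 41526 in fed TOR RNAi and 51951 to 72804 in fed control worms. Their part in the lower acs-4 was not tested.

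acs-11 and acs-5 were lower in fasted Rheb RNAi than in fasted control worms. acs-11 had log2 intensities of 7.35, 7.67, 7.14 and 8.14 in fasted and 6.76, 7.47, 6.95 and 7.44 in fed Rheb RNAi worms. TOR RNAi worms had 8.19, 8.31 and 8.30 fasted and 7.49, 7.50 and 7.72 fed. Control worms had 8.0, 7.94, 8.73, 9.11 and 9.37 fasted and 7.40, 7.85, 7.55, 7.87 and 7.96 fed. The fasted control arrays were spread over more than a log2 unit, and the lowest of them lay among the fed ones. On fasting acs-11 was at 0.42 in Rheb RNAi and 0.70 in TOR RNAi worms, the second called under the block (adjusted p = 0.040), and it rose by 0.90 ± 0.24 in control worms (limma's adjusted p = 0.0097). Fasted Rheb RNAi worms were at -1.05 ± 0.25 against fasted control worms (limma's adjusted p = 0.0047).

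acs-5, read by a single _s_at probe set, had log2 intensities of 7.52, 7.45, 7.28 and 7.19 in fasted Rheb RNAi and 8.36, 7.84, 8.02, 7.92 and 8.07 in fasted control worms. These groups did not overlap, and the difference was -0.68 ± 0.15 (limma's adjusted p = 0.0026). Fasted TOR RNAi worms, at 7.58, 7.36 and 8.01, were at -0.39 against fasted control worms, and at -0.58 without TOR fasted 3, when the difference was called. In fed worms acs-5 ranged from 7.45 to 7.99 under Rheb RNAi, from 7.80 to 8.25 under TOR RNAi and from 7.71 to 8.10 in control worms. Fasting changes of acs-5 were -0.32, -0.36 and 0.15 under Rheb, TOR and control RNAi, and none was called.

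acs-7, a peroxisomal family member known from the making of ascaroside pheromones, was called in none of the 10 comparisons. Its log2 intensity averaged 6.41 ± 0.24 in fasted and 6.37 ± 0.37 in fed Rheb RNAi worms (SD, n = 4 each). It averaged 5.85 ± 0.12 and 5.63 ± 0.06 in fasted and fed TOR RNAi worms (SD, n = 3 each) and 6.14 ± 0.47 and 6.0 ± 0.35 in fasted and fed control worms (SD, n = 5 each). Among its changes in the 7 comparisons between 2 groups, the largest in size was 0.38 ± 0.22, for Rheb against control RNAi in fed worms (limma's adjusted p = 0.19), called at 0.42 under the block (adjusted p = 0.034).

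Of the 7 other acs genes tested, 1 was called on fasting under Rheb RNAi, 1 under TOR RNAi and 3 in control worms. Of all tested genes 11.9%, 6.24% and 18.9% were called there. acs-14 fell by -1.93 ± 0.20 in Rheb RNAi, -1.85 ± 0.23 in TOR RNAi and -1.1 ± 0.18 in control worms (limma's adjusted p = 1.5e-07, 3.6e-06 and 7.2e-05). acs-19, a relative of the acetyl-CoA synthetases, rose by 0.90 ± 0.15 in control worms (limma's adjusted p = 1.6e-04), and its response was lower by -0.79 ± 0.23 under Rheb RNAi (limma's adjusted p = 0.047). acs-16 rose by 0.62 ± 0.15 in control worms (limma's adjusted p = 0.0040). No other acs gene tested was called on fasting on any plate. The 6 acs genes that were not tested were acs-6, acs-10, acs-15, acs-18, acs-23 and acs-24.

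Genes that take up the products of these enzymes were counted from lists of the neighbouring pathways. Of all tested genes 3.23% rose and 8.67% fell on fasting under Rheb RNAi, 1.08% rose and 5.16% fell under TOR RNAi, and 11% rose and 7.91% fell in control worms, and the counts of each list are to be read beside these shares. In mitochondrial beta-oxidation and the carnitine shuttle, 0 of 31 tested genes rose and 6 fell on fasting under Rheb RNAi, 0 rose and 3 fell under TOR RNAi, and 4 rose and 2 fell in control worms. Under Rheb RNAi the enoyl-CoA hydratase genes ech-7 and ech-8 were at -2.05 and -1.29, and cpt-5, of the carnitine palmitoyltransferases, at -3.42. Under TOR RNAi cpt-5, cpt-3 and ech-9 were at -1.77, -1.39 and -3.55. The rises in control worms included hacd-1 (3.57), a hydroxyacyl-CoA dehydrogenase gene, ech-7 (1.62) and acdh-3 (0.50), an acyl-CoA dehydrogenase gene.

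Peroxisomal beta-oxidation, which shortens very long and branched chains and makes ascarosides, had more falls than rises. Of 14 tested genes 8 fell under Rheb RNAi, 3 fell under TOR RNAi, and 4 fell and 1 rose in control worms. The acyl-CoA oxidase gene acox-1.5 was at -4.83 in Rheb RNAi, -5.30 in TOR RNAi and -2.39 in control worms. The peroxisomal transporter gene pmp-1 was at -2.72 under Rheb and -2.87 under TOR RNAi, and dhs-28, a peroxisomal dehydrogenase gene, at -1.18 and -0.72. In control worms acox-1.2 (-1.06) fell and prx-5 (0.57), the receptor gene for peroxisomal import, rose.

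Fatty acid synthesis, elongation and desaturation went different ways. Of 18 tested genes 10 fell and 0 rose under Rheb RNAi, 3 fell and 1 rose under TOR RNAi, and 2 fell and 7 rose in control worms. let-767 (0.84), which encodes a hydroxysteroid dehydrogenase family enzyme, rose in control worms and the fatty acid synthase gene fasn-1 (-0.64) fell. The delta-9 desaturase gene fat-7 was at -4.68 or lower under Rheb RNAi, where its fasted mean was below log2 4 and values below 4 were set to 4. It was at -3.20 under TOR RNAi and -1.74 in control worms. Other desaturase genes lower under Rheb RNAi were fat-3 (-1.74) and fat-5 (-2.32), and fat-6 (-0.99) fell under TOR RNAi. The 1 rise under TOR RNAi was mlcd-1 (0.52), a malonyl-CoA decarboxylase gene and not itself one of synthesis, elongation or desaturation.

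Of 14 tested genes for fatty acid and acyl-CoA binding proteins, 4 fell under Rheb RNAi, 2 fell under TOR RNAi, and 2 fell and 1 rose in control worms. The acyl-CoA binding protein gene acbp-3 was at -1.83, -1.34 and -1.29 on the Rheb, TOR and control plates, and the lipid binding protein gene lbp-7 at -1.63, -1.73 and -0.94. maa-1 (-1.02), a further acyl-CoA binding protein gene, fell under Rheb RNAi and lbp-6 (0.67) rose in control worms. Of 21 genes of acyltransferases and sphingolipid synthesis 3 fell on each kind of plate and 1 rose in control worms. dgat-2, for the last step of triglyceride synthesis, was at -1.87, -1.67 and -1.07, and sptl-3, for a subunit of serine palmitoyltransferase, at -0.56 under Rheb and -0.62 under TOR RNAi. The other named calls of this list were acl-1 (-0.81) under Rheb RNAi, sptl-2 (-1.23) under TOR RNAi, and acl-7 (0.83) and acl-3 (-0.54) in control worms.

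Of 9 lipase genes tested, which release the fatty acids, 2 fell and 1 rose under Rheb RNAi, 4 fell under TOR RNAi, and 1 fell and 2 rose in control worms. Under Rheb RNAi the hormone-sensitive lipase gene hosl-1 was at 0.45 and lipl-5 at -2.56. With fasted means below log2 4 and values below 4 set to 4, lipl-1 was at -2.27 or lower under Rheb RNAi, and lipl-1, lipl-2 and lipl-3 were at or below -4.56, -2.09 and -1.42 under TOR RNAi. In control worms lipl-1 (-1.11) fell, and hosl-1 (0.59) and the lysosomal lipase gene lipl-4 (2.14) rose. Of 14 regulators of fat genes tested, 2 fell under Rheb RNAi, 1 fell under TOR RNAi and 2 rose in control worms. The nuclear receptor gene nhr-80 was at -1.45 under Rheb and -1.07 under TOR RNAi, and pqm-1 (-0.96) fell under Rheb RNAi. aak-2 (0.43), an AMP-activated kinase gene, and hlh-30 (0.97), a TFEB-like factor gene, rose in control worms. nhr-49 itself was not called on fasting, at 0.25 in Rheb RNAi, -0.01 in TOR RNAi and 0.18 in control worms.

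**Figure D3:**
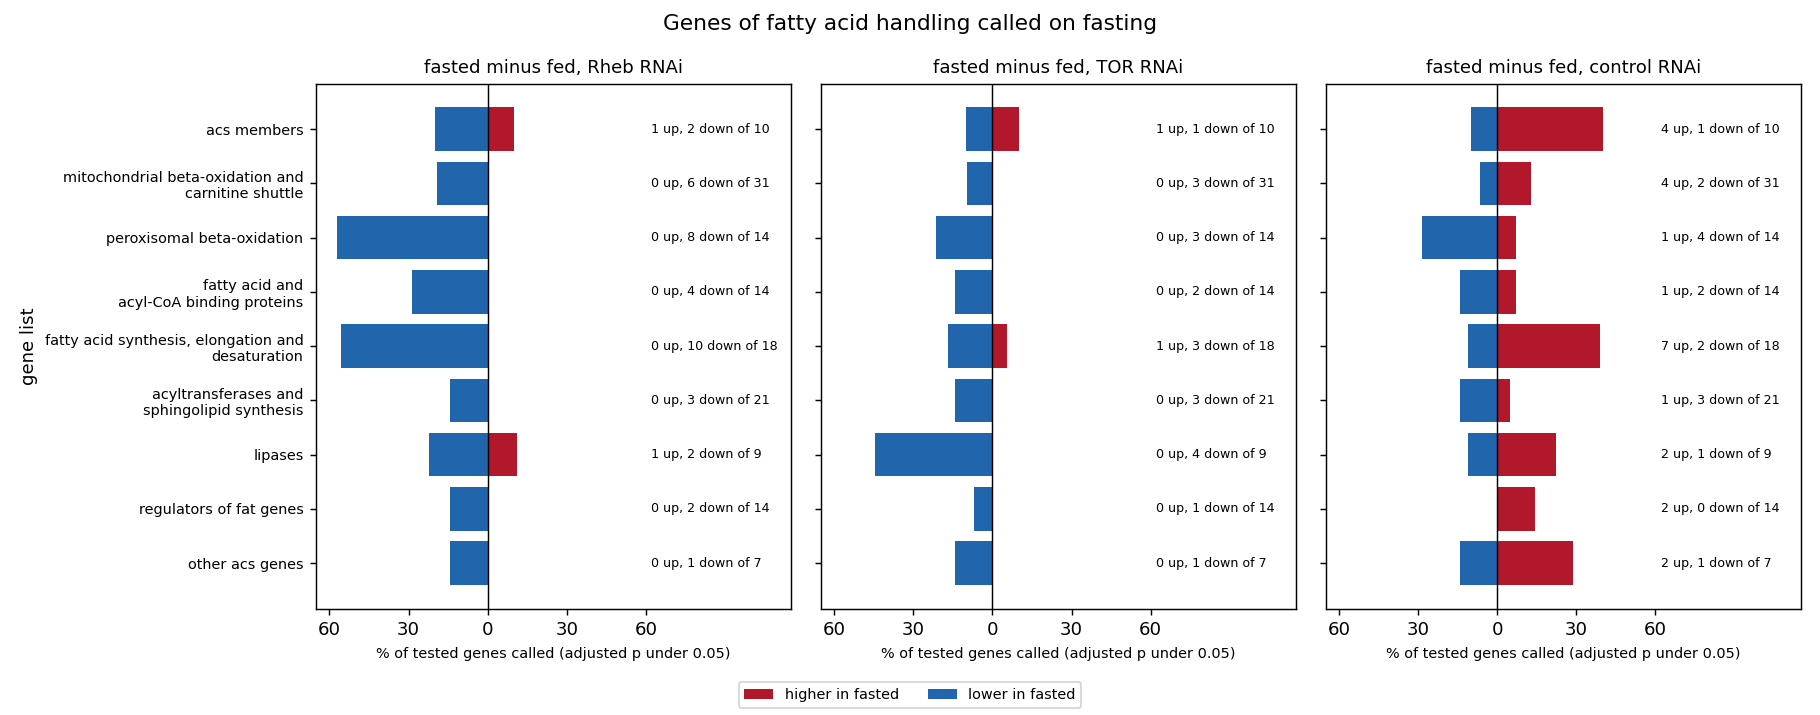
Share of tested genes called on fasting (percent, limma's adjusted p under 0.05), higher to the right and lower to the left, for the 10 acyl-CoA synthetase genes and 8 related lists under Rheb, TOR and control RNAi. Synthesis, elongation and desaturation had 10 of 18 lower under Rheb RNAi, where 8.67% of all tested genes were, and 7 of 18 higher in control worms, where 11% of all tested genes were.

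The tested genes whose log2 intensity followed acs-2 most closely over the 24 arrays were far-7, aqp-1, adh-1, DH11.2 and acer-1, with Pearson's r of 0.965, 0.944, 0.943, 0.921 and 0.919. They were picked for this likeness out of all tested genes, and the arrays share their 6 groups. Within groups, after the group means were taken away, r was 0.699, 0.606, 0.579, 0.453 and 0.609. far-7 encodes a fatty acid and retinol binding protein, aqp-1 a channel for water and glycerol, and adh-1 an alcohol dehydrogenase. Fasting changes of far-7 were 2.10 in Rheb RNAi, 2.59 in TOR RNAi and 4.48 in control worms, and in fed worms it was higher by 1.68 under TOR RNAi (limma's adjusted p = 0.0089) and at 0.61 under Rheb RNAi. The others were not all alike in this. In fed TOR RNAi worms aqp-1 (1.93), adh-1 (1.32), DH11.2 (1.08) and acer-1 (0.62) were called higher than in control worms. In fed Rheb RNAi worms DH11.2 (0.87) was called higher, while aqp-1 (-0.81), adh-1 (-0.34) and acer-1 (0.29) were not called. In fasted worms adh-1 was lower under TOR RNAi by -1.46 (limma's adjusted p = 0.036), where acs-2 was not called. None of the 5 genes had both interactions with control called, as acs-2 did. Called lower were the responses of far-7 (-2.38) and DH11.2 (-2.0) under Rheb RNAi and of adh-1 (-2.78) under TOR RNAi. The interactions of aqp-1 and acer-1 were not called. acer-1 had a similar order of groups over a smaller range, with 13.12 and 12.57 in fasted and fed Rheb RNAi, 13.52 and 12.91 in fasted and fed TOR RNAi, and 13.27 and 12.29 in fasted and fed control worms.

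**Figure D4:**
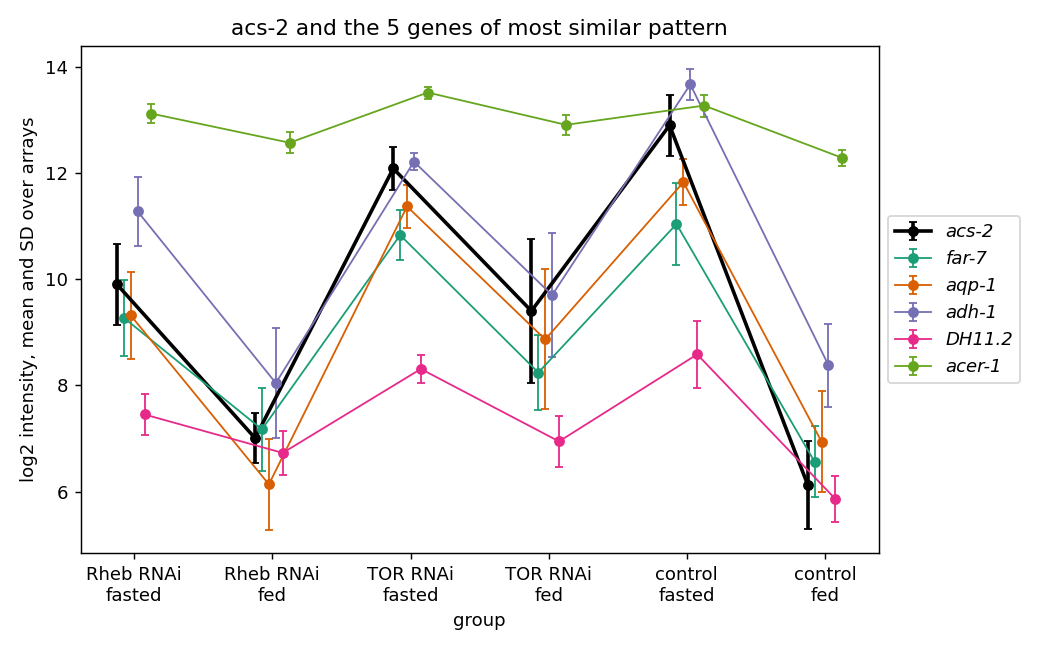
Mean log2 intensity with SD over arrays of acs-2 (black) and the 5 genes most like it, in fasted and fed Rheb RNAi (n = 4 each), TOR RNAi (n = 3 each) and control worms (n = 5 each); lines only join the points of a gene. acs-2 has its highest mean in fasted control worms (12.90) and its lowest in fed control worms (6.13).

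For acs-1 the closest genes were daf-36 (r = 0.960), which encodes an enzyme of steroid hormone synthesis, F49C12.7 (0.956), lec-6 (0.943), cbl-1 (0.942) and pho-8 (0.941). For acs-3 they were F32A5.4 (0.851), the lysozyme gene ilys-3 (0.846), pghm-1 (0.839), Y37D8A.2 (0.836) and nrsn-1 (0.833). For acs-17 they were tts-1 (0.915), ndx-1 (0.910), cox-6B (0.908), a respiratory chain gene, F59E11.5 (0.900) and ndua-13 (0.899). Among the 10 genes themselves, acs-1 and acs-2 ran opposite to each other over the 24 arrays (r = -0.82, within groups -0.06) and acs-3 and acs-17 ran together (r = 0.74).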

How the data were processed

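RNA (5 µg a sample) of 24 whole-worm samples was hybridised to 1 array each. The deposited values are probe set intensities on a linear scale, made with GCRMA per the submitters' processing notes, and the labels name GeneSpring GX 7.3.1. GCRMA normalizes arrays against each other, so a shift shared by all transcripts may be hidden in part, though array medians still differed (46.9 to 58). Detection calls were not used, and the precision rests on the number of arrays.

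Intensities were turned into log2 values here. Of 22625 probe sets, 77 are controls, 20766 name 1 gene, 887 several and 895 none; a lookup by Entrez number, possible for 20701, changed 0 symbols. Linear models with 6 group means were fitted over 12277 genes in limma 3.58.1 (R 4.3.3, 18 residual degrees of freedom) with Benjamini-Hochberg adjustment within each of 10 comparisons. The fit was tested on simulated data with independent errors for each array. Such data lack the likeness of same-numbered arrays described below, so they cannot show how the fit behaves under it. Named genes were all 10 members, up to 3 called genes of smallest p for each list and fasting comparison, the other acs genes called on fasting, the 2 targets, and the 5 genes most correlated with acs-2 and with the 3 other members called most often. The members and lists were chosen with earlier results of these data known. nhr-49, the tested regulator of acs-2, was named outside this rule.

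Same-numbered arrays deviated together from their group means, with correlations of 0.176 to 0.734 among Rheb and control RNAi arrays and 0.503 to 0.568 within TOR RNAi, against -0.378 to 0.283 between TOR and the other plates. The block by replicate number therefore gave TOR numbers blocks of their own. Arrays of different numbers reached 0.559 between TOR and Rheb RNAi and 0.463 between TOR and control RNAi. A pairing of TOR arrays with other numbers was not fitted. Alternatives were 2 further scalings, 2 variance models, 2 filters, a floor and 2 treatments of probe sets. Others were fitting only the groups compared, 2 blocks, each array left out, and 2 arrays left out. The last was added after the data were seen, and the block with TOR numbers apart was shaped by the correlations above. Sequences and genome positions of the genes were not analysed here.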

Additional observations from a re-analysis of the deposited data

Results flagged for a closer look

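The fasting responses of 3 genes differed between plates by an interaction term: acs-2 at -3.88, acs-3 at -1.17 and acs-17 at -0.77 for Rheb against control RNAi, and acs-2 at -4.09 and acs-3 at -1.19 for TOR against control RNAi. The acs-17 term and the acs-3 term for TOR RNAi had adjusted p of 0.04999 and 0.045 in limma. A single array stood apart from its group: acs-17 was at 8.35 in fasted Rheb RNAi replicate 2, where the nearest other value was 8.75. Of 40 groups of 4 or 5 arrays examined this was the 1 so marked, and chance marks about 1 in 20.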

How the results depend on the processing

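Of 100 changes (10 genes in 10 comparisons) 27 were called, 21 of them under all 37 alternatives that gave a value. The other 6 (acs-3 and acs-17 in the Rheb interaction, acs-3 in the TOR interaction, acs-20 in both Rheb contrasts and acs-22 in the fasted one) were each lost in at least 1, and 18 of 73 changes not called were called under at least 1. No called change turned its sign. For the TOR interaction with control, 1 gene in place of 2 was called with arrays centred on their medians, with quantile normalization, with an intensity trend, without the filter, with every probe set tested, when only the compared groups were fitted, and without the 2 arrays of highest Gapdh 3' ratio. Without those 2 arrays, 1 gene in place of 3 was called in the Rheb interaction. Centring gave 6 in place of 3 for Rheb RNAi in fed worms and 1 in place of 0 for TOR RNAi in fasted worms. Without _s_at and _x_at probe sets 8 members were tested, and 2 in place of 5 were called for Rheb RNAi in fasted worms. A replicate block over all arrays gave 5 in place of 2 for fasting under TOR RNAi, 5 in place of 3 for the Rheb interaction, 5 in place of 3 for Rheb RNAi in fed worms and 3 in place of 0 for TOR RNAi in fasted worms; with the TOR numbers apart, the replicate block gave 5 for fasting under Rheb RNAi, 5 under TOR RNAi, 5 for the Rheb interaction and 6 for Rheb RNAi in fed worms. It changed no other count by over 1.5 times, and it gives no value for TOR against control RNAi within a feeding state. Over all genes the block with TOR numbers apart called 3822 in place of 1461 for fasting under Rheb RNAi and 1769 in place of 766 under TOR RNAi. In control worms it called 4697 in place of 2322, so more calls under a block are not particular to these 10 genes. Counts in this section without a number for all genes beside them show only how calls move with the setting.

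Leaving out each array in turn gave 3 to 4 called genes for fasting under Rheb RNAi, 2 to 3 under TOR RNAi and 5 to 5 in control worms. It gave 2 to 3 for the Rheb interaction, 1 to 2 for the TOR interaction, 0 to 0 for TOR against Rheb, 3 to 5 and 4 to 5 for Rheb and TOR RNAi in fed worms, and 3 to 5 and 0 to 1 in fasted worms. Over all genes, centring put the median change at -0.15 in place of 0.04 for TOR RNAi in fed worms, at 0.17 in place of 0.02 for the Rheb interaction and at 0.13 in place of 0.00 for the TOR interaction. The cause was not tested for any of these shifts. With 3 to 5 arrays a group, the SE of the acs-2 fasting change was 0.49 under Rheb RNAi, 0.57 under TOR RNAi and 0.44 in control worms. The 10 genes cannot be ranked by level, since intensities of different probe sets are not on 1 scale.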
